A study of Mus musculus with 6 samples.

Results

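The enzymes that make, remove and respond to methylated arginine were followed in 6 mouse liver tumor cell lines, 3 made by disrupting *Trp53* and 3 by disrupting *Kmt2c*. The members were 8 genes picked by symbol: the dimethylarginine hydrolases *Ddah1* and *Ddah2*, the nitric oxide synthases *Nos1*, *Nos2* and *Nos3*, and the protein arginine methyltransferases *Prmt1*, *Prmt5* and *Prmt6*. All 8 were among the 20856 genes with values, and 5 passed the filter for testing (1 RPKM or more in 3 or more of the libraries), as did 11617 genes in all. The pathway was chosen because *Ddah2* was lower in the *Kmt2c* lines in this same contrast, so *Ddah2* is described here without a test, and the other members carry the comparison.

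RNA was sequenced from tumor-derived lines of C57BL/6 mice, with 3 lines of genotype *Myc*; sg*Trp53* and 3 of *Myc*; sg*Kmt2c* (called sgp53 and sgMll3 in the sample labels). Every line arose after hydrodynamic delivery of a *Myc* transposon and of a px330 plasmid carrying Cas9 and the guide, so both genotypes share *Myc* and neither has an unedited counterpart here. *Trp53* encodes the tumor suppressor p53 and *Kmt2c* the histone H3 lysine 4 methyltransferase MLL3. The cultures were untreated, had been passaged until visibly free of fibroblasts, and each line came from its own mouse according to the study's methods. A difference between the genotypes therefore compares disruption of one gene with disruption of the other, and neither with intact liver cells.

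Arginine methyltransferases (PRMTs) transfer methyl groups from S-adenosylmethionine to arginines in proteins. When such proteins are degraded, asymmetric dimethylarginine (ADMA) is released, and free ADMA competes with arginine at the nitric oxide synthases. DDAH1 and DDAH2 are the enzyme pair named for hydrolyzing ADMA to citrulline and dimethylamine, although DDAH1 carries the better documented activity. Liver is a major site of ADMA clearance. PRMT1 and PRMT6 place asymmetric marks, and PRMT5 places symmetric ones together with its obligate partner MEP50, the product of *Wdr77*.

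The sequences upstream of *Ddah2*, *Ddah1* and *Prmt5* are shown. Of the members that passed the filter, these 3 had the largest log2 fold changes, that of *Ddah2* being the one that chose the pathway. They are RefSeq promoter windows on build GRCm38.p6 (the 250 bases before the RefSeq start), cut back where the deposited table places the gene itself in the window, and read 5′ to 3′ on the strand of the gene. The windows lie at chr17:35058785-35059034 (plus strand) for *Ddah2*, chr3:145758442-145758674 (plus strand) for *Ddah1* and chr14:54517526-54517720 (minus strand) for *Prmt5*. Capitals mark the letters GGGCGG (GC box) and CCAAT on either strand. The E-box CACGTG, which MYC can bind, and TATAAA were also searched, and no searched motif overlapped another.
Ddah2 upstream: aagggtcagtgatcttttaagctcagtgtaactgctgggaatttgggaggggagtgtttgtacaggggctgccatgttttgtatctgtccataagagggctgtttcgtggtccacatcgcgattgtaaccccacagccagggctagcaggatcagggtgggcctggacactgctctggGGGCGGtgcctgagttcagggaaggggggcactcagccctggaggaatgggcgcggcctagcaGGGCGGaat
Ddah1 upstream: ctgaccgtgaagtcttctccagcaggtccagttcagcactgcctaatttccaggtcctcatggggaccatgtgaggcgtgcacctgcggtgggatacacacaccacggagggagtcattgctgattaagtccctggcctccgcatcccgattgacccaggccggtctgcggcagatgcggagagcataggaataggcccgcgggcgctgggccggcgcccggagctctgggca
Prmt5 upstream: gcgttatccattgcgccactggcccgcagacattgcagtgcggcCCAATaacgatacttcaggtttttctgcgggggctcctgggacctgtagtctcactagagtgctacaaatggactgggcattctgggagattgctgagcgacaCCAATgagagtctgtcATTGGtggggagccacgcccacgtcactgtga

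The 3 windows differ in their letters. The *Ddah2* window holds 2 GC boxes, which begin 72 and 9 bases before the start. Neither motif is present in that of *Ddah1*, which has 17 CpG dinucleotides in its 250 bases, against 7 for *Ddah2* and a median of 6 over 32841 promoters. The full window of *Prmt5* holds 4 CCAAT matches, 3 of them in the printed part, and its far end overlaps a tRNA gene. GC boxes occur in 32.75% of all such windows and CCAAT in 33.86%. Of the 6 members with a window, *Prmt1* alone has CACGTG, 181 bases before its start, as do 6.023% of promoters, and none has TATAAA, found in 12.37%. These are matches of letters and not mapped binding sites.

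The libraries held 5312182 to 6878625 gene-assigned reads in sg*Trp53* cells and 3680068 to 4704539 in sg*Kmt2c* cells. The values are RPKM, read counts scaled for transcript length and library size. Comparisons of level between genes rest on the deposited lengths, such as 351 bases for *Snd1*, 431 for *Hnf4a* and 574 for *Vim*. A length that is too short raises the RPKM, and whether these lengths fit the transcripts was not tested. *Trp53* RNA stood at 17.2 to 19.4 RPKM in sg*Trp53* cells and 92.2 to 124 in sg*Kmt2c* cells, as labelled. *Kmt2c* RNA overlapped between the genotypes (18.4 to 24.2 and 9.51 to 25.0 RPKM), and the gene-level value does not show whether the edit is present. Line 1 of sg*Kmt2c* stood apart: its correlation with the other libraries was 0.759 to 0.836, against 0.881 to 0.951 among the remaining 10 pairs. The values that rest on it are therefore also given without it. Albumin (*Alb*), which defines hepatocytes, reached at most 4.36 RPKM. The summed level of 9 hepatocyte genes was 20.3 to 38.3 RPKM in sg*Trp53* cells but 1320, 4.73 and 211 in sg*Kmt2c* lines 1, 2 and 3. Much of this was *Hnf4a*, a hepatocyte and epithelial transcription factor, and the other 8 genes summed to 13.6 to 16.8 RPKM in sg*Trp53* cells and to 133, 4.11 and 41.0 in those 3 lines. The 7 biliary and epithelial genes summed to 6808 in sg*Kmt2c* line 1, against 68.5 to 1022 in the other lines. The 10 mesenchymal genes summed to 2773 to 4313 and 2237 to 4962 RPKM, most of it *Vim* at 2116 RPKM or more. *Col3a1* added 814 RPKM in sg*Trp53* line 2, and 115 and 92.9 in sg*Kmt2c* lines 2 and 3. Of the 6 mesenchymal genes tested, *Vim* and *Col3a1* included, 5 were lower in sg*Kmt2c* cells by log2 fold change (median -1.50 over the 6, 0 past an adjusted or an unadjusted p of 0.05 in limma). The exception was *Vim*, at 0.12. *Dcn*, under the filter, had 85, 9 and 106 reads against 0, 0 and 2. Endothelial genes, which would bring *Nos3*, summed to 0.360 to 1.27 RPKM with *Emcn* at 0 in every line. Myeloid genes, which would bring *Nos2*, summed to 33.5 to 72.2 and 36.2 to 76.6 RPKM, with *Ptprc* at or below 0.0655. In that list *Lyz2*, *Csf1r* and *Adgre1* were lower, and *Cd14* higher, in every sg*Kmt2c* line, while *Cd68*, *Itgam* and *Ptprc* overlapped. Over all genes tested the lines did not overlap for 16.2%. *Adgre1* was under the filter, with 4, 5 and 11 reads against 0, 0 and 1. The part of these marker genes in the results was not tested.

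*Ddah2* was low in all 3 sg*Kmt2c* lines. It measured 15.6, 22.4 and 26.6 RPKM in sg*Trp53* lines 1, 2 and 3, and 1.74, 2.02 and 1.22 in sg*Kmt2c* lines 1, 2 and 3. The lowest sg*Trp53* line was well above the highest sg*Kmt2c* line, and the group means, 21.6 ± 5.53 and 1.66 ± 0.406 RPKM (SD, n = 3 each), differed 13.0-fold. The reads behind these values were 128, 160 and 246 against 11, 10 and 7. Exact Poisson 95% intervals, which cover counting error only, ran from 13.0 to 30.1 RPKM over sg*Trp53* cells and from 0.491 to 3.72 over sg*Kmt2c* cells. On the log2(RPKM + 1) scale, which understates the change of a low gene, the difference was -3.06. Line 1 of sg*Kmt2c* did not set this value, which was -3.09 without it. Because these are bulk samples, fewer cells with the transcript and less transcript per cell cannot be told apart. These values chose the pathway and are a description.

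*Ddah1*, the other hydrolase, overlapped between the genotypes. It measured 40.7, 31.8 and 67.1 RPKM in sg*Trp53* cells and 89.0, 6.92 and 17.7 in sg*Kmt2c* cells. Lines 2 and 3 of sg*Kmt2c* were below every sg*Trp53* line, and line 1 was above them all. The log2 fold change was -0.93 with a standard error of 0.847 (95% interval -2.96 to 1.09), and the limma adjusted p over all genes was 0.752. An exact two-sided permutation test gave p = 0.7, where 3 lines against 3 cannot give less than 0.1. Leaving out sg*Kmt2c* line 1 brought the change to -1.90 (limma p of 0.00647, adjusted p = 0.360), and leaving out line 2 brought it to -0.14. Between its lowest and highest sg*Kmt2c* line *Ddah1* ranged 12.9-fold, a spread (SD 1.78 on the log2 scale) exceeded by few genes, at the 95.9 percentile of all genes tested. In sg*Trp53* cells the range was 2.11-fold. Line 1 of sg*Kmt2c*, the highest for *Ddah1*, was also the highest in summed hepatocyte and epithelial genes, and their part in its *Ddah1* level was not tested.

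**Figure D1:**
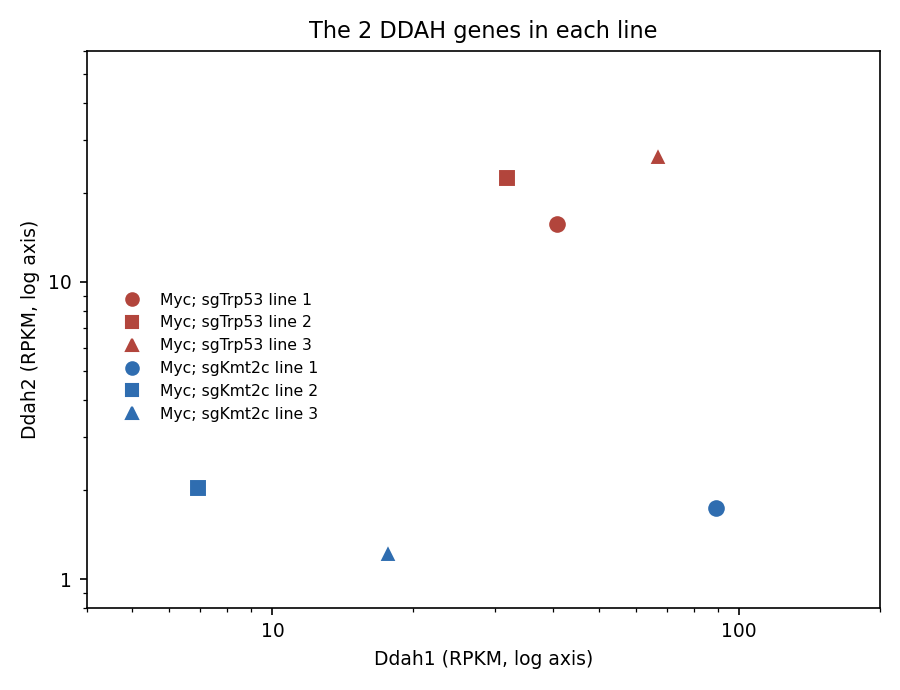
*Ddah1* (x axis) against *Ddah2* (y axis) in RPKM on log scales, with 1 point per line, red for sg*Trp53* and blue for sg*Kmt2c*. sg*Kmt2c* cells lie at or below 2.02 RPKM of *Ddah2* and are spread along the *Ddah1* axis from 6.92 to 89.0 RPKM.

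The plot of the hydrolase pair sets these patterns side by side. Per length, *Ddah1* RNA exceeded *Ddah2* RNA in all 6 lines. The ratio of *Ddah1* to *Ddah2* was 2.60, 1.42 and 2.52 in sg*Trp53* cells and 51.1, 3.42 and 14.5 in sg*Kmt2c* cells. *Ddah2* thus made up 27.8%, 41.4% and 28.4% of the summed DDAH level in the former and 1.92%, 22.6% and 6.44% in the latter. The summed level itself did not separate the genotypes: it was 56.3, 54.2 and 93.7 RPKM in sg*Trp53* cells and 90.7, 8.94 and 18.9 in sg*Kmt2c* cells. In sg*Kmt2c* line 1 the total stayed within the range of the other genotype, with nearly all of it from *Ddah1*, while in lines 2 and 3 both hydrolases were low. The protein and its activity were not measured.

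The 3 nitric oxide synthases, the enzymes that ADMA inhibits, were the lowest members in sg*Trp53* and sg*Kmt2c* cells alike, and none passed the filter for testing. *Nos1*, the neuronal form, had 0, 86 and 1 reads in sg*Trp53* cells (0, 1.60 and 0.0143 RPKM) and 0, 1 and 5 in sg*Kmt2c* cells (0, 0.0268 and 0.116 RPKM). A single line, sg*Trp53* line 2, held nearly all of its reads. *Nos2*, the inducible form made by activated macrophages and hepatocytes, had 3, 11 and 26 reads against 6, 0 and 0, or 0.117, 0.493 and 0.900 RPKM against 0.304, 0 and 0. The genotypes overlapped through sg*Kmt2c* line 1. *Nos3*, the endothelial form, had 2, 0 and 0 reads against 2, 2 and 0, so every library lay under the limit of 3 reads and no fold is given. The annotated bounds of *Nos3* overlap those of *Atg9b*, which had 21 to 734 reads a library. Exact two-sided permutation tests gave p = 0.9 for *Nos1*, 0.2 for *Nos2* and 0.4 for *Nos3*. No synthase separated the genotypes, which at these few reads does not show that they are alike.

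The 3 methyltransferases were expressed in every line, *Prmt1* and *Prmt5* at far higher levels than *Prmt6*. Of the 4 members tested besides *Ddah2*, 0 passed an adjusted p of 0.05 in limma, a call made for 0.129% of all genes (0.0516% higher and 0.0775% lower in sg*Kmt2c* cells). At an unadjusted p under 0.05 there was 1 (*Prmt5*, lower), where 8.58% of all genes passed (3.25% higher and 5.34% lower), and limma voom on the recovered reads gave the same counts of 0 and 1. Only *Prmt5* of the 4 had lines that did not overlap. Over all genes that share was 16.2% (5.72% with all sg*Kmt2c* lines higher and 10.4% with all lower).

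*Prmt5* measured 80.5, 101 and 90.0 RPKM in sg*Trp53* cells and 52.1, 62.3 and 73.5 in sg*Kmt2c* cells. Each sg*Kmt2c* line was below each sg*Trp53* line. The log2 fold change was -0.53 (standard error 0.201, 95% interval -1.01 to -0.05), with a limma p of 0.0347 and an adjusted p of 0.557, so that it did not pass over all genes. The exact permutation p was 0.1, the smallest this design allows. The unadjusted p rose to 0.0703 without sg*Kmt2c* line 1, 0.0735 without sg*Kmt2c* line 2, 0.111 without sg*Trp53* line 2 and 0.0878 without sg*Trp53* line 3, while the change stayed between -0.65 and -0.41 with any library left out.

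*Prmt1*, the main source of asymmetric dimethylarginine in cells, measured 109, 106 and 126 RPKM against 74.1, 116 and 150. *Prmt6*, which methylates histone H3 arginine 2, measured 9.76, 9.89 and 9.30 against 8.26, 6.65 and 13.5. For both genes the 3 sg*Kmt2c* lines ranged from below to above every sg*Trp53* line, and the latter differed little among themselves. The log2 fold change of *Prmt1* was -0.05 (95% interval -0.72 to 0.62, limma adjusted p = 0.955). That of *Prmt6* was -0.08 (95% interval -0.77 to 0.61, adjusted p = 0.942). These intervals leave room for a change of either sign, and the sign of both small values turned when single libraries were left out.

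**Figure D2:**
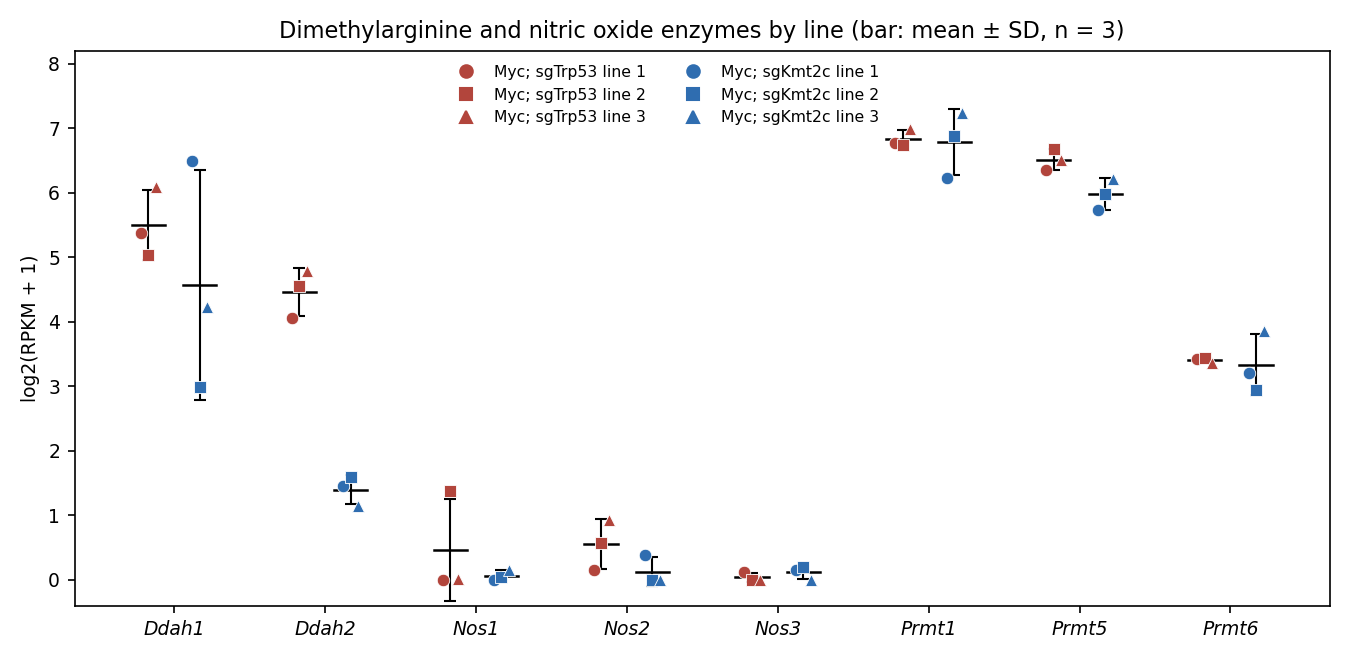
The 8 members by line, as log2(RPKM + 1), red for sg*Trp53* and blue for sg*Kmt2c*, with the mean and SD of each genotype (n = 3). *Ddah2* separates widely, *Prmt5* narrowly (80.5 to 101 against 52.1 to 73.5 RPKM), *Ddah1* is spread out in sg*Kmt2c* cells and the synthases are lowest, with *Nos1* at 1.60 RPKM in sg*Trp53* line 2 and *Nos2* at 0.900 in line 3.

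Ranked by mean RPKM, the members ran in the order *Prmt1*, *Prmt5*, *Ddah1*, *Ddah2*, *Prmt6* and then the synthases in sg*Trp53* cells, and each of the first 4 was above its next neighbor in all lines without overlap. In sg*Kmt2c* cells the order was *Prmt1*, *Prmt5*, *Ddah1*, *Prmt6*, *Ddah2*. There the range of *Ddah1* overlapped those of both its neighbors, and *Ddah2* lay below all the lines of *Prmt6* and above those of the synthases.

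The cofactors that work with PRMT5 were read next. *Wdr77* measured 48.7, 69.5 and 55.0 RPKM in sg*Trp53* cells and 24.4, 30.4 and 34.4 in sg*Kmt2c* cells. As with *Prmt5*, every sg*Kmt2c* line was lower. The log2 fold change was -0.93 (standard error 0.223, 95% interval -1.46 to -0.40), with a limma p of 0.00459 and an adjusted p of 0.366. Without sg*Kmt2c* line 1 it was -0.80 (limma p of 0.00923, adjusted p = 0.386). The annotated bounds of *Wdr77* overlap those of *Atp5f1*, a subunit gene of mitochondrial ATP synthase, which was also lower in each sg*Kmt2c* line (182, 233 and 177 against 92.5, 120 and 166 RPKM). The library kit does not mark strand, so reads in a shared stretch cannot be assigned to either gene. *Prmt5* exceeded *Wdr77* per length by a factor of 1.65, 1.45 and 1.63 in sg*Trp53* cells and 2.13, 2.05 and 2.14 in sg*Kmt2c* cells (exact permutation p = 0.1). The other PRMT5 cofactors did not separate: *Clns1a*, the adaptor for Sm proteins, had a log2 fold change of 0.0022, *Riok1* of -0.12 and *Coprs* of -0.47.

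**Figure D3:**
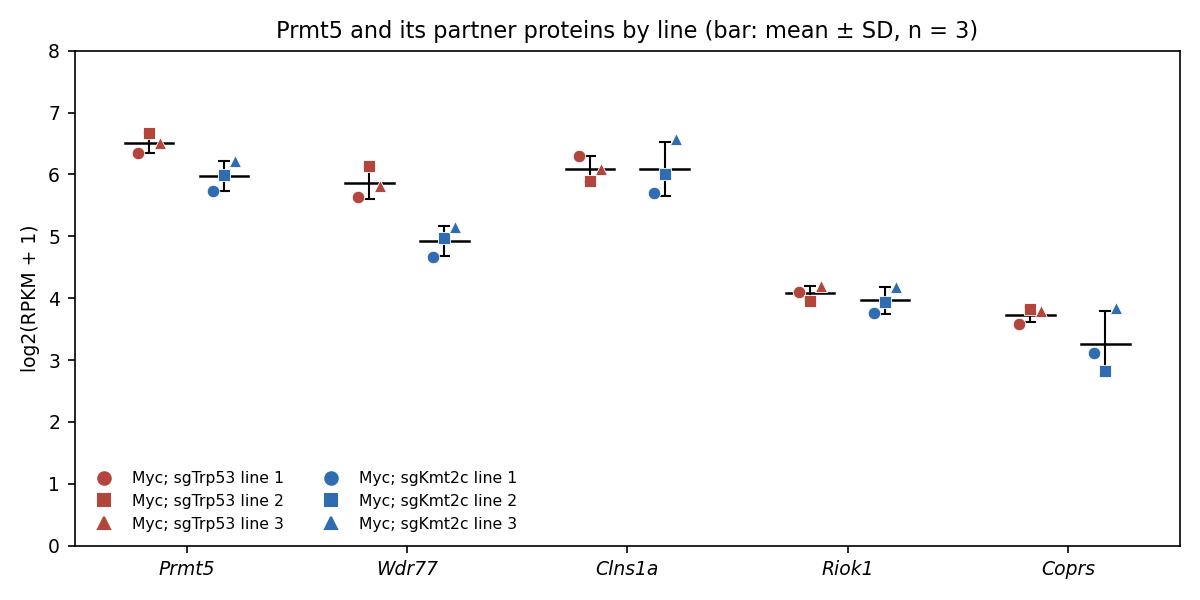
*Prmt5* and its partners *Wdr77*, *Clns1a*, *Riok1* and *Coprs* by line, as log2(RPKM + 1), red for sg*Trp53* and blue for sg*Kmt2c*, with the mean and SD of each genotype (n = 3). *Prmt5* and *Wdr77* are lower in every sg*Kmt2c* line, and the other partners overlap.

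Around these members, 69 genes were listed in 11 roles from methyl donor to nitric oxide receptor. Of these, 68 were in the table and 53 passed the filter. At an adjusted p of 0.05, 0 passed in limma or in limma voom, and at an unadjusted p under 0.05 there were 5 (9.43%, 5 in limma voom), close to the 8.58% of all genes. The lines did not overlap for 9 (17.0%, 3 higher and 6 lower in sg*Kmt2c*), against 16.2% of all genes. Among the 45 pathway genes that reached 1 RPKM in all 6 libraries, the lines did not overlap for 8 (17.8%, against 15.9% of all such genes). In that set, which leaves out *Prkg2*, 3 (6.67%) had an unadjusted p under 0.05, against 8.38% of all such genes. The other 2 of the 5, *Nostrin* and *Prkg2*, passed the filter through sg*Kmt2c* cells, where they were high, so their values are given without a test. The median log2 fold change over the 53 was 0.0022, against -0.09 over all genes. By count over all 6 libraries the pathway as listed was thus near the background of the contrast. Without sg*Kmt2c* line 1, 8 pathway genes (15.1%) had an unadjusted limma p under 0.05, against 9.25% of all genes.

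Among the other methyltransferases, *Prmt3*, which methylates ribosomal protein S2, was higher in each sg*Kmt2c* line (log2 fold change 0.43, adjusted p = 0.639), or 0.21 without sg*Trp53* line 2. *Prmt7*, which makes monomethylarginine, was lower in each (-0.38, adjusted p = 0.660, or -0.23 without sg*Trp53* line 1), though its bounds overlap *Smpd3*. *Prmt2*, *Carm1* and *Prmt9* overlapped between genotypes. Among readers of methylarginine, *Smn1*, the survival motor neuron gene, changed by -0.32 (adjusted p = 0.716, or -0.14 without sg*Kmt2c* line 2 and -0.20 without sg*Trp53* line 3). *Snd1*, the highest of them in RPKM (952 to 1367, at a deposited length of 351 bases), changed by 0.01 (adjusted p = 0.989). The methyl donor enzymes *Mat2a* (-0.16) and *Ahcy* (-0.01) overlapped, and *Mat1a*, the form of adult hepatocytes, was at or below 0.153 RPKM in every line. None of these passed the test.

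Enzymes and carriers that set free ADMA and arginine came next. *Agxt2*, a second route of ADMA breakdown, had 0 RPKM in all 6 lines. The cationic amino acid carrier *Slc7a1* changed by -0.02 (adjusted p = 0.992), and *Slc3a2*, the heavy chain that some carriers need, by 0.60 (adjusted p = 0.643). The latter was 0.31 without sg*Kmt2c* line 1, 0.40 without sg*Trp53* line 2 and 0.85 without sg*Kmt2c* line 2 (limma p of 0.0426, adjusted p = 0.562). Neither separated the genotypes. *Oat*, which turns ornithine into a proline precursor, measured 48.2, 46.7 and 46.9 RPKM against 22.4, 37.9 and 43.5, lower in each sg*Kmt2c* line (-0.49, adjusted p = 0.646). Without sg*Kmt2c* line 1 this was -0.22, and without sg*Kmt2c* line 3 it was -0.68 (limma p of 0.0482, adjusted p = 0.391). Its annotated bounds overlap those of *Fgfr2*. Genes of the hepatocyte urea cycle differed in level. *Otc* and *Nags* were at or below 0.0707 RPKM, while *Cps1* reached 1.38 and *Arg1* 4.78 in single lines. *Asl* was expressed in all 6 lines (21.9 to 31.2 RPKM), and *Ass1* ranged from 1.26 to 89.9 RPKM. *Arg2*, the mitochondrial arginase, was at or below 0.230 RPKM.

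Of the genes for tetrahydrobiopterin, the cofactor of the synthases, *Spr* separated the genotypes. This gene encodes sepiapterin reductase, the last step of the synthesis, and measured 25.7, 14.1 and 18.9 RPKM in sg*Trp53* cells and 44.0, 37.5 and 51.9 in sg*Kmt2c* cells. The log2 fold change was 1.17 (95% interval 0.53 to 1.81), with a limma p of 0.00364 and an adjusted p of 0.338, and it was also 1.17 without sg*Kmt2c* line 1 (limma p of 0.00794, adjusted p = 0.381). *Gch1*, the rate-limiting first enzyme, did not separate and ranged from 0.293 to 8.87 RPKM within sg*Kmt2c* cells alone.

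Among proteins that bind synthases, *Nostrin*, which moves NOS3 inside the cell, was at 0.363, 2.49 and 0.963 RPKM against 13.9, 2.10 and 4.53. The genotypes overlapped, and the log2 fold change of 1.59 was 0.97 without sg*Kmt2c* line 1. *Dynll1*, a dynein light chain that binds NOS1, was lower in each sg*Kmt2c* line by a small margin (-0.23, adjusted p = 0.717). Of the transcription factors that induce *Nos2*, *Irf1* measured 20.03, 30.8 and 34.5 RPKM against 5.66, 15.5 and 14.2. Every sg*Kmt2c* line was lower (-1.28, limma p of 0.0181, adjusted p = 0.489), with a change of -0.86 (p of 0.0203) once sg*Kmt2c* line 1 was left out, and the unadjusted p was 0.0550 without sg*Trp53* line 2 and 0.0634 without sg*Trp53* line 3. *Rela*, the NF-κB subunit, was lower by less (-0.32, adjusted p = 0.647).

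Downstream of nitric oxide, the soluble guanylate cyclase subunits that sense it (*Gucy1a2*, *Gucy1a3* and *Gucy1b3*) were at or below 0.0826 RPKM in every line. *Prkg2*, a cGMP-dependent kinase, was low but higher in each sg*Kmt2c* line, at 0.495, 0.719 and 1.52 RPKM against 5.68, 3.22 and 7.30 (log2 fold change 1.73, or 1.67 without sg*Kmt2c* line 1). *Adh5* and *Akr1a1*, reductases that dispose of S-nitrosothiols, were abundant and overlapped between the genotypes (-0.30 and -0.21). These were -0.16 for *Adh5* without sg*Kmt2c* line 1 and -0.04 without sg*Trp53* line 1, and -0.05 for *Akr1a1* without sg*Trp53* line 2. In each of the 11 roles, then, no gene passed the adjusted test.

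**Figure D4:**
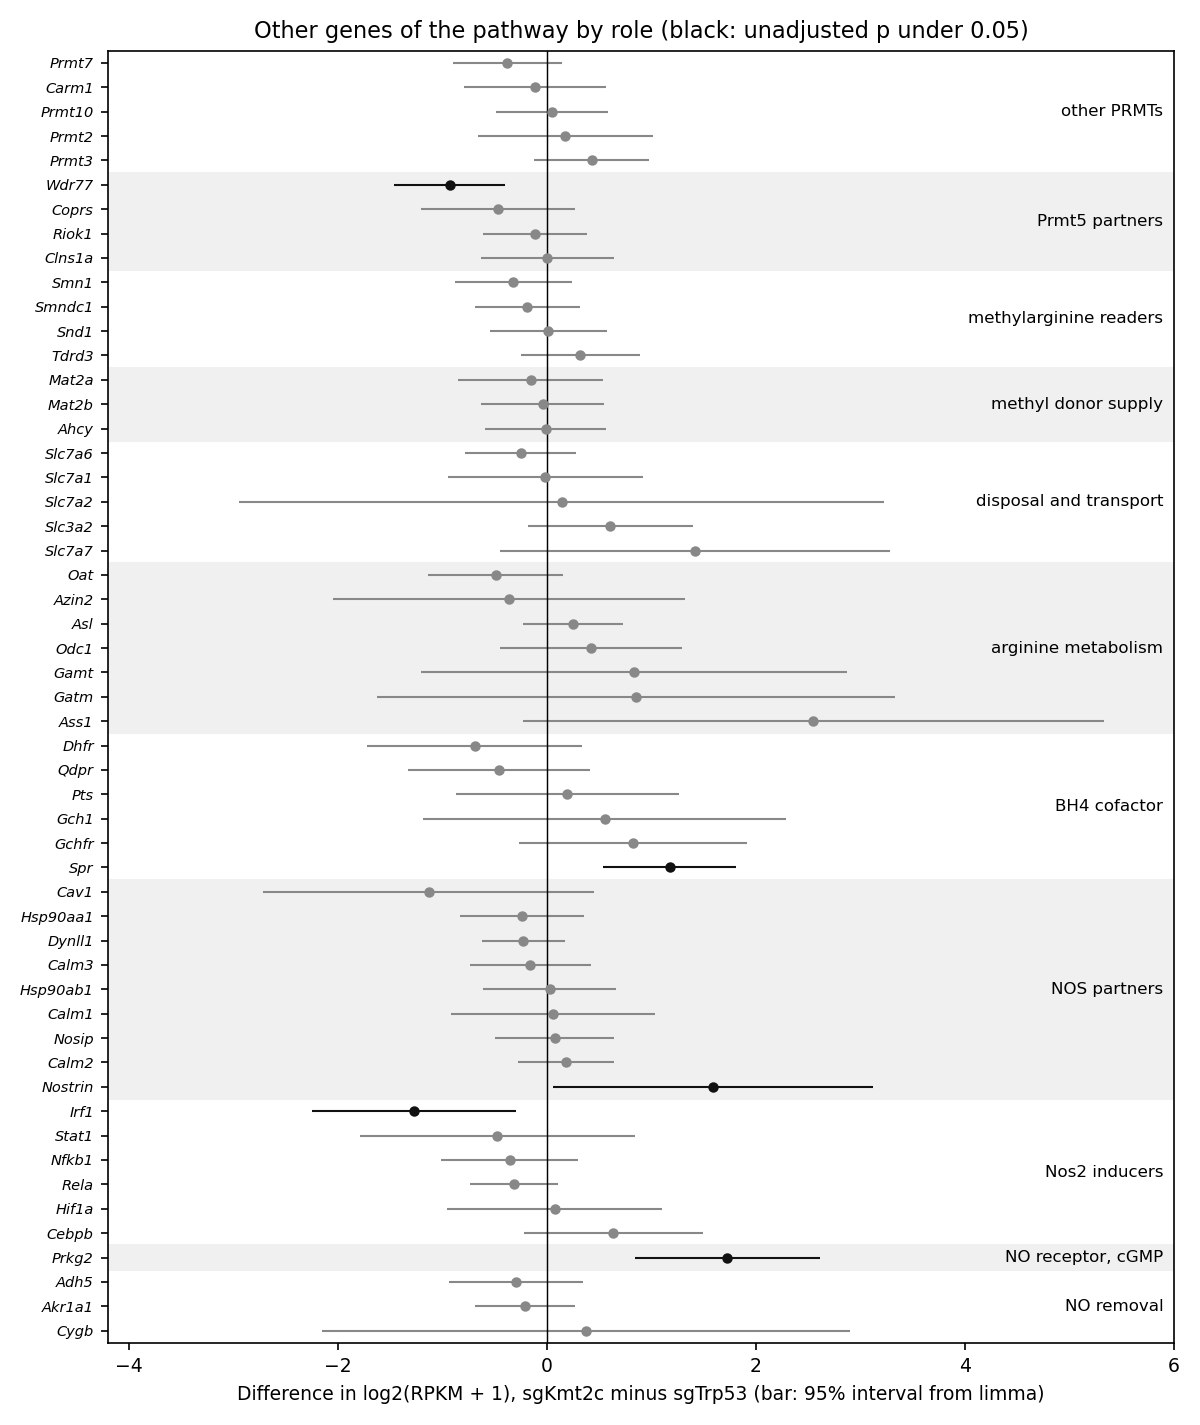
Log2 fold changes (sg*Kmt2c* minus sg*Trp53*) of the tested pathway genes by role, with 1 point per gene, its 95% limma interval as a bar, and *Prmt9* under its older symbol Prmt10. Values fall on both sides of 0 in most roles. The 5 genes in black, at an unadjusted p under 0.05, are *Spr*, *Wdr77*, *Irf1*, *Nostrin* and *Prkg2*. *Nostrin* and *Prkg2* passed the filter through sg*Kmt2c* cells, where they were high, so their marking is not read as a test.

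The genes beside *Ddah2* on chromosome 17 that could be tested did not share its pattern. *Ddah2* spans 35059035 to 35062095 (GRCm38), and no gene of the table overlaps it. Within 50 kb lay 8 others, of which 4 were tested and none separated the genotypes. Over all genes tested the lines did not overlap for 16.2%, so with 4 genes the absence of any is not read as a result. *Clic1*, an intracellular chloride channel gene that ends 285 bases before *Ddah2*, measured 100, 101 and 123 RPKM in sg*Trp53* cells and 198, 135 and 107 in sg*Kmt2c* cells (log2 fold change 0.40, 95% interval -0.22 to 1.02, limma adjusted p = 0.698). Without sg*Kmt2c* line 1 the change was 0.16, and without sg*Kmt2c* line 3 it was 0.60. *Vars*, a tRNA synthetase gene, changed by -0.03, the hydrolase gene *Abhd16a* by 0.05 and *Msh5*, a meiotic mismatch repair gene, by 0.39, and all 3 overlapped. *G6b* and *Ly6g6d*, the next genes on the other side, had 0 reads in each library, while *Vwa7* and *Sapcd1* were below the filter.

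**Figure D5:**
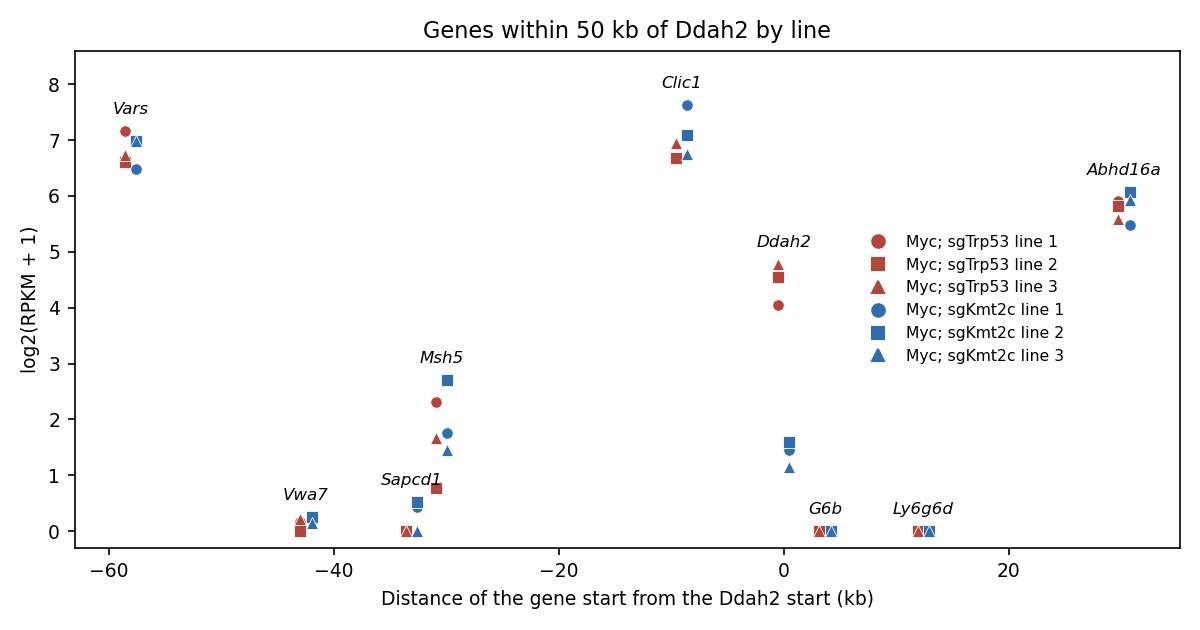
Genes within 50 kb of *Ddah2* by line, as log2(RPKM + 1) against the distance of the gene start from the *Ddah2* start in kb. Only *Ddah2* has sg*Kmt2c* points (blue) wholly below the sg*Trp53* points (red), and *Clic1*, which ends 285 bases away, does not.

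By Pearson correlation of log2(RPKM + 1) over the 6 libraries, the genes most like *Ddah2* were *Mex3a* (0.997), *Neil2* (0.993), *Pdpn* (0.988), *Mbd1* (0.987) and *M6pr-ps* (0.985), a pseudogene. These values describe 6 points that share 2 genotypes, out of 11616 genes searched. *Mex3a*, an RNA-binding protein gene, measured 28.3 to 34.4 RPKM in sg*Trp53* cells and 14.8 to 16.3 in sg*Kmt2c* cells. *Neil2*, a DNA glycosylase gene, had 13, 14 and 17 reads against 0 in each sg*Kmt2c* line, and *Pdpn*, which encodes podoplanin, 122, 110 and 287 reads against 0, 0 and 1. *Mbd1*, a methyl-CpG-binding protein gene, differed little in size, at 15.0 to 15.2 against 10.7 to 11.0 RPKM, but tightly within each genotype.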

How the data were processed

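RNA from the 6 lines was made into libraries with an Illumina TruSeq v2 kit. All 6 ran on 2 lanes of the same flow cell. The authors deposited RPKM values per gene, which the study's methods and processing notes attribute to trimming with Trimmomatic, alignment to GRCm38 (mm10) with STAR and counting with HTSeq. Whether counting used strand is not given in the sources used here. The RPKM steps gave whole reads for 100% of values (tolerance 0.01 read). Of 21065 rows, 209 hold no values. The table has 6 columns of other samples, not used here. A second table holds the authors' own fold changes and p-values and was not used.

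Genes with 1 RPKM or more in 3 or more libraries were tested with limma 3.58.1 (R 4.3.3, empirical Bayes with trend) on log2(RPKM + 1), with Benjamini-Hochberg adjustment over all 11617. Single genes also had exact two-sided permutation tests (scipy 1.17.1). The code was tested on simulated data. Replicate pairs differed by 29.4 to 85.8 chi-square units per gene, far above sampling noise, so none was a duplicate. This does not show whether any of the lines shared a mouse. The limma p-values set each difference between the genotypes against the spread between these lines, moderated over all genes.

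The members and lists were chosen with earlier results of these data known. Named genes are the members, the targeted genes, in each role those whose lines do not overlap or whose unadjusted p is under 0.05 (at most 4, or else the 2 with the highest mean), genes within 50 kb of *Ddah2*, and the 5 most correlated with it. Others were named after their values were seen. *Prmt9* and the cyclase subunits are under older symbols (Prmt10, Gucy1a3, Gucy1b3), and *Prmt8* is not in the values used. In all, 17 alternatives were run: other pseudocounts (0.1, 0.5), filters and scalings, no trend, voom, a replicate block, each library left out, and sg*Kmt2c* lines 2 and 3 as 1 sample. The last was run because the deposited names of these lines share a number. Promoter windows are from RefSeq (GRCm38.p6), where 6 of 8 members matched.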

Additional observations from a re-analysis of the deposited data

How the results depend on the processing

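Over the 17 alternatives no member other than *Ddah2*, which was not tested, and no pathway gene passed an adjusted p of 0.05 (0 in each). Few genes of any kind passed. Over all genes, 0 passed with the replicate block and with sg*Kmt2c* lines 2 and 3 as 1 sample. With a library left out, 0 passed as well, except for 8 without sg*Kmt2c* line 1. In the remaining alternatives 4 to 20 passed, so a count of 0 among the members and pathway genes shows little. The *Ddah2* log2 fold change was -3.61 with a pseudocount of 0.1 and -3.63 with limma voom, both of which shrink low values less, and -3.27 to -2.90 with each library left out. The count of members at an unadjusted p under 0.05 was 0, in place of 1, with median-of-ratios factors, without the trend and with the replicate block, and 0 to 1 with each library left out. That of pathway genes was 3 when every library had to reach an RPKM of 1, where fewer genes were tested (6.67%, against 8.38% of all genes), and 3 to 9 with each library left out: 3 (5.66%, against 4.85% of all genes) without sg*Trp53* line 3, and 9 (17.0%, against 8.86%) without sg*Kmt2c* line 2. Pathway genes whose lines did not overlap numbered 19 (35.8%, against 28.5% of all genes) with sg*Kmt2c* lines 2 and 3 as 1 sample and 10 to 20 with each library left out, where fewer lines have to separate: 10 (18.9%, against 22.3%) without sg*Trp53* line 3 and 20 (37.7%, against 26.8%) without sg*Kmt2c* line 1.

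Small changes turned sign. With quantile normalization *Snd1* was -0.11, *Ahcy* 0.019 and *Slc7a1* 0.011. With median-of-ratios factors *Prmt1* was 0.026, *Ahcy* 0.066, *Slc7a1* 0.061 and *Vars* 0.054. Rescaled to TPM, *Snd1* was -0.014. With sg*Kmt2c* lines 2 and 3 as 1 sample *Snd1* was -0.058, *Slc7a1* 0.027 and *Abhd16a* -0.032. With each library left out the ranges were -0.28 to 0.22 for *Prmt1*, -0.34 to 0.12 for *Prmt6*, -0.11 to 0.16 for *Snd1*, -0.32 to 0.12 for *Mat2a*, -0.16 to 0.17 for *Ahcy*, -0.36 to 0.24 for *Slc7a1*, -0.14 to 0.14 for *Vars*, -0.013 to 0.76 for *Msh5* and -0.074 to 0.23 for *Abhd16a*. The cause was not tested.

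The replicate numbers of the labels are shared between the genotypes. Deviations from the group means correlated at 0.192, 0.399 and 0.0316 for same-numbered lines, and sg*Trp53* line 3 correlated best with sg*Kmt2c* line 1 (0.152), so the numbers were not taken to pair the lines. With the replicate block 0 of all genes passed an adjusted p of 0.05 (15 without it) and 1085 an unadjusted one, and *Prmt5* had a limma p of 0.0511. Depth limits the synthases, where a count of 3 reads or fewer was treated as low, and *Ddah2* in sg*Kmt2c* cells, which rests on 7 to 11 reads a line.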

Other observations

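Of the 12 tested genes in the lists for arginine metabolism and for methylarginine disposal and transport, 4 were higher in sg*Kmt2c* lines 2 and 3, where *Ddah1* was low, than in any sg*Trp53* line, while line 1 was not. The pattern was chosen after the values were seen, and 5.18% of all genes tested show it. Only these lists of the 11 were counted. Genes of other roles showed the pattern too, among them *Carm1*, *Nosip*, *Calm2* and *Hsp90ab1*, so it is not particular to arginine handling. The other 8 of the 12 did not show it, among them *Asl*, *Oat* and *Odc1*. *Ass1*, which joins citrulline to aspartate on the way back to arginine, measured 1.26, 2.66 and 3.68 RPKM in sg*Trp53* cells and 2.00, 89.9 and 27.4 in sg*Kmt2c* cells. *Gamt*, the second enzyme of creatine synthesis, measured 24.1, 18.6 and 13.1 against 7.52, 99.7 and 45.0. *Gatm*, the first enzyme of that route, measured 1.51, 0.787 and 4.43 against 0, 14.8 and 8.03. The arginine carrier *Slc7a2* measured 4.24, 15.3 and 5.61 against 0.0577, 33.5 and 19.6. In *Ass1*, *Gamt*, *Gatm* and *Slc7a2* the highest value was that of sg*Kmt2c* line 2, followed by line 3. Line 1 was the lowest or second lowest of the 6. The genotypes overlapped for each gene, and none passed the limma test after adjustment over all genes.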
